A study of Mus musculus and Homo sapiens with 22 samples.

Results

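The comparison set MDA-MB-231 cells treated with TAK901 at 2 µM against the same cells treated at 1 µM. It held 4 RNA-seq libraries, 2 per dose, out of 22 libraries in the series, of which 10 were MDA-MB-231 and 12 were the mouse mammary tumour line 4T1. MDA-MB-231 is an established human breast cancer line of the triple-negative type. The 4 libraries were chosen by cell line, compound and dose from the submitters' labels, with no vehicle library in the difference. All of them came from cells exposed for 24 h, and the question was how the transcript profile at the higher dose differed from that at the lower one. The other MDA-MB-231 libraries, 2 each of DMSO vehicle, ENMD-2076 at 2.5 µM and ENMD-2076 at 5 µM, were used for the estimate of spread and as reference levels. The labels did not say whether the replicates came from separate cultures, so the p-values speak only of how these libraries vary, and that variation may be technical. The files held 14135739 and 14320531 counted reads at 1 µM, 13939873 and 14905381 at 2 µM, and 13399296 to 23990881 in the other 6 libraries.

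TAK901 is an inhibitor of Aurora kinases that also acts on other kinases, and ENMD-2076 is an inhibitor of Aurora A and of several receptor tyrosine kinases. Aurora A works at centrosomes and spindle poles, where it is needed to build a bipolar spindle. Aurora B works in the chromosomal passenger complex, where it corrects faulty attachments of chromosomes to the spindle and takes part in cytokinesis. Cells in which these kinases are blocked commonly fail to divide and can become polyploid, so genes of S phase and of G2 and mitosis are a usual readout of such compounds.

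The count files identified genes by human Ensembl IDs with version numbers and did not pair them with names. None of the 42713 IDs matched the name tables used here (0 matches), which were of mouse. Gene names, gene families and the markers of the cell line were therefore not analysed here, and results are given for IDs, for 4 single IDs and for 3 ID lists of cell-cycle phases. In bulk RNA, fewer cells in a state and less RNA per cell cannot be told apart.

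The 2 libraries at 2 µM differed more from each other than any other replicate pair. The biological coefficient of variation, the replicate spread left after counting error, was 0.233 at 2 µM. It was 0.109 at 1 µM, 0.112 in DMSO, and 0.0695 and 0.0745 with ENMD-2076 at 2.5 and 5 µM. Among 9509 IDs with a mean normalised level of at least 10 in counts-per-million (CPM) over the 10 libraries, 328 differed over 2-fold between the 2 µM replicates, which was 3.45%. In each other group that number was between 1 and 9.

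The excess lay almost wholly on one side: 318 of the 328 IDs were higher in replicate 1 of 2 µM and 10 were lower. The 318 IDs had a median level of 110 CPM in replicate 1 of 2 µM and 45.4 CPM in replicate 2. Their median was 50.8 and 43.2 CPM at 1 µM, and 53.1 and 50.9 CPM in DMSO. Replicate 2 thus stood at the level of the 1 µM libraries for these IDs and replicate 1 stood above all other libraries. They took 10.4% of the reads in replicate 1 and 4.28% to 5.13% in the other 9 libraries. The 50 most abundant IDs took 17.7% of reads in replicate 1 of 2 µM against 13.3% to 15.2% elsewhere. The set was picked from the 2 µM values, so these figures are a description. Of the 318 IDs, 16 were later called higher at 2 µM and 0 lower, where 1.09% and 2.66% of all tested IDs were. The set was picked for a high 2 µM library, so higher calls were favoured in advance. What part the distance between the replicates had in the calls below was not tested beyond leaving out each library.

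At 2 µM, 555 of 14826 tested IDs differed from 1 µM, 161 of them higher and 394 lower (edgeR's quasi-likelihood test over all 10 libraries, Benjamini-Hochberg adjusted p under 0.05). These were 3.74% of the tested IDs, with 1.09% higher and 2.66% lower. More IDs were called lower than higher, and the called rises had the larger median log2 difference, at 0.84 against -0.61 for the falls. A level of at least 50 CPM, where smaller differences could be called, was held by 243 lower and 70 higher IDs. The sizes of both sets are thus not compared, and without a filter on low counts 675 IDs were higher and 694 lower. Past 2-fold there were 56 rises and 42 falls, and the smallest difference called was 0.40 on the log2 scale. The median log2 difference over all tested IDs was 0.01.

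The calls rested on the spread estimated from all 10 libraries. The 2 µM replicates lay further apart than those of the other groups, so that shared spread may be too small for this contrast. When edgeR was fitted to the 4 TAK901 libraries alone, 0 of 14142 IDs passed, with a smallest adjusted p of 0.208 and 1737 IDs at an unadjusted p under 0.05. In the fit of 10 libraries 3128 IDs were at an unadjusted p under 0.05. Leaving out single libraries also moved the count by over 1.5 times in every case. It was 64 without replicate 1 and 22 without replicate 2 of 1 µM, 981 without replicate 1 and 3581 without replicate 2 of 2 µM, 327 and 285 without replicate 1 or 2 of DMSO, 198 and 224 without replicate 1 or 2 of ENMD-2076 at 2.5 µM, and 195 and 194 without replicate 1 or 2 of ENMD-2076 at 5 µM. Where a TAK901 group was left with 1 library, that library was assumed to vary like the other groups.

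Without replicate 1 of 2 µM, 450 of the 555 IDs were still called, and without replicate 2 of 2 µM 547 were. Without replicate 1 of 1 µM 59 were, and without replicate 2 of 1 µM 22 were.

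**Figure D1:**
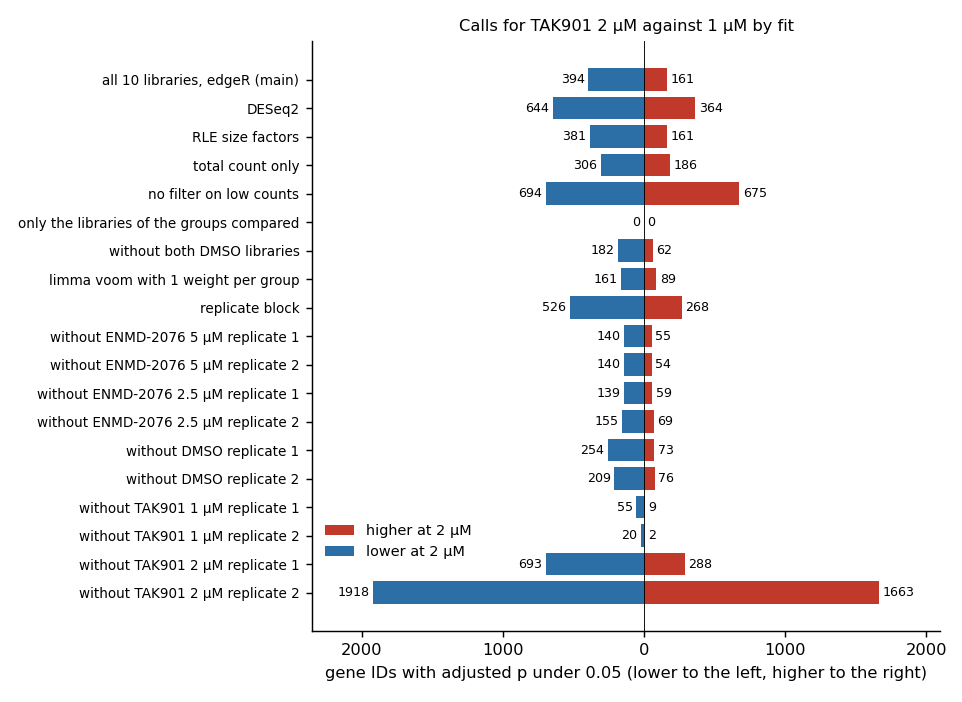
Number of gene IDs called lower (left, blue) and higher (right, red) at TAK901 2 µM than at 1 µM under each fit, at an adjusted p under 0.05. The count ran from 0 in the fit of only the 4 TAK901 libraries to 3581 without replicate 2 of 2 µM, against 555 in the fit of all 10 libraries.

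For each of the 555 called IDs, both 2 µM libraries lay on the same side of both 1 µM libraries, so leaving out a library could not turn their direction. Such separation of 2 against 2 libraries was common over the whole table, with 3037 IDs (20.5%) higher and 3419 (23.1%) lower at 2 µM in both libraries. Within the higher set, replicate 1 of 2 µM stood a median of 1.03 log2 units above the mean of 1 µM and replicate 2 stood 0.58 above it. Within the lower set, replicate 1 stood at -0.70 and replicate 2 at -0.55. Replicate 1 was the further of the pair for 132 of the 161 higher IDs and for 278 of the 394 lower IDs. The 2 µM replicates were over 2-fold apart for 2 of the 394 lower and 22 of the 161 higher IDs, and for 1527 of all 14826 tested IDs. The called falls were smaller than the rises, at a median log2 difference of -0.61 against 0.84. From 50 CPM up there were 243 lower and 70 higher IDs. Evenness between replicates is thus not read as a trait of the falls.

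**Figure D2:**
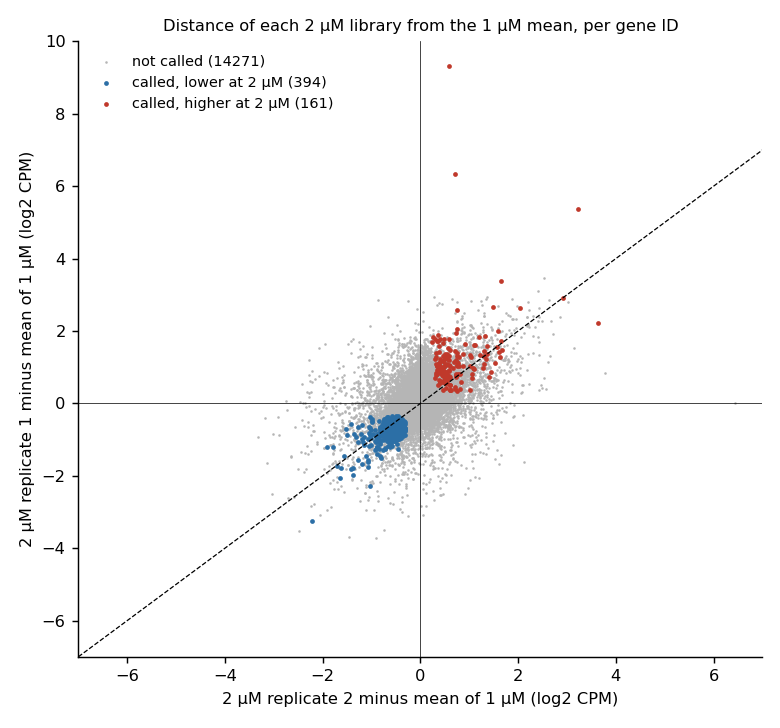
Distance of 2 µM replicate 1 (y axis) and replicate 2 (x axis) from the mean of the 1 µM libraries, in log2 CPM, one point per tested gene ID, with equality as the dashed line. The 161 higher IDs (red) lie mostly above that line, with a median of 1.03 for replicate 1 against 0.58 for replicate 2, and the 394 lower IDs (blue) lie closer to it, at -0.70 against -0.55.

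The calls were concentrated among well-read IDs. Among 4605 IDs with a mean of at least 50 CPM over the 4 TAK901 libraries, 70 were higher and 243 lower, which was 6.80%. Between 10 and 50 CPM, 73 were higher and 121 lower of 4921, which was 3.94%. Between 2 and 10 CPM, 17 were higher and 29 lower of 2653, which was 1.73%, and below 2 CPM 2 of 2647 were called, which was 0.0756%. The differences that could be called shrank with level, from a median absolute log2 difference of 1.35 between 2 and 10 CPM to 0.77 between 10 and 50 CPM and 0.58 from 50 CPM up.

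**Figure D3:**
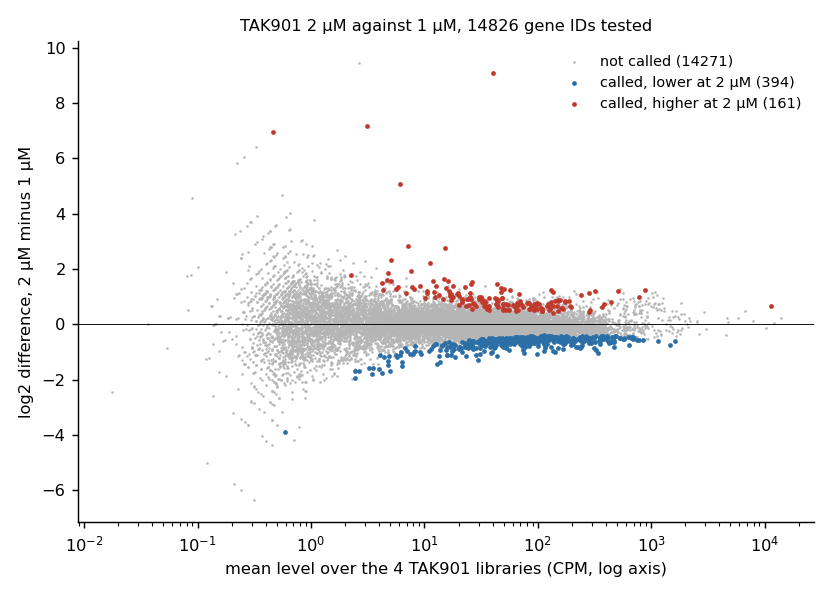
Log2 difference of TAK901 2 µM minus 1 µM (y axis) against the mean level over the 4 TAK901 libraries in CPM (x axis, log scale) for 14826 gene IDs. Called IDs, 161 higher in red and 394 lower in blue, are few below 2 CPM (2 of 2647) and most frequent from 50 CPM up (70 and 243 of 4605).

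Among the 4 largest fitted rises, at least 1 library of 2 µM was below 5 CPM in each. The ID with the largest rise was at 160.8 CPM in replicate 1 of 2 µM and at 0.256 CPM in replicate 2. It stood at 0.0701 and 0.207 CPM at 1 µM and at 60.7 and 113 CPM in the libraries of ENMD-2076 at 5 µM. Replicate 1 of 2 µM and both libraries of ENMD-2076 at 5 µM were thus high for it, while it reached at most 1.90 CPM in DMSO and ENMD-2076 at 2.5 µM. The second largest had the same shape, with 12.2 and 0.128 CPM at 2 µM, 0 CPM and 0.0691 CPM in the 1 µM libraries, and 5.28 and 11.2 CPM with ENMD-2076 at 5 µM. The third never passed 1.41 CPM, and the fourth was at 19.5 and 4.29 CPM at 2 µM against 0.351 and 0.346 CPM at 1 µM. Both 2 µM libraries of the fourth were above both 1 µM libraries, which were near 0. No fold is given for these 4. The single IDs described next had at least 5 CPM in every library of their higher group.

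The largest rise under that condition was ENSG00000270681.1. It was at 0.912 and 2.63 CPM at 1 µM and at 12.7 and 12.6 CPM at 2 µM, so the 2 µM replicates were close to each other and far above both 1 µM libraries. It was at 0.0754 and 1.07 CPM in DMSO, 0.331 and 0.147 CPM with ENMD-2076 at 2.5 µM, and 0.0743 and 0.499 CPM with ENMD-2076 at 5 µM. Outside 2 µM its highest level was thus that of replicate 2 of 1 µM. The fitted rise was 7.10-fold (log2 difference 2.83, SE 0.63, adjusted p 0.0279 by edgeR). It was 2.82 without replicate 1 and 2.82 without replicate 2 of 2 µM. It was 2.26 without replicate 1 of 1 µM (adjusted p 0.178) and 3.79 without replicate 2 (0.105), so its size depended on the 1 µM library and neither fit called it. The call was also lost in the fit of the 4 TAK901 libraries (0.217), and in DESeq2 (0.1103).

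The second was ENSG00000110852.4, at 4.84 and 2.97 CPM at 1 µM and at 40.9 and 12.2 CPM at 2 µM. Both 2 µM libraries were above both 1 µM libraries, and replicate 1 was over 3 times as high as replicate 2. It was at 1.13 and 1.58 CPM in DMSO, 1.86 and 4.05 CPM with ENMD-2076 at 2.5 µM, and 7.88 and 4.37 CPM with ENMD-2076 at 5 µM. The fitted rise was 6.77-fold (log2 difference 2.76, SE 0.51, adjusted p 0.0122 by edgeR). Its size depended on the 2 µM library: it was 1.64 without replicate 1 and 3.38 without replicate 2. The call was lost without replicate 1 of 1 µM (adjusted p 0.0760) or replicate 2 (0.159) and in the fit of 4 libraries (0.226).

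The largest fall under the same condition was ENSG00000198796.6. It was at 7.15 and 6.01 CPM at 1 µM and at 1.81 and 2.05 CPM at 2 µM, with no overlap. It was at 7.16 and 8.92 CPM in DMSO, so the 1 µM libraries were at or below the vehicle level and the 2 µM libraries well below it. With ENMD-2076 it was at 16.4 and 15.5 CPM at 2.5 µM and at 10.3 and 12.3 CPM at 5 µM. It was 3.39-fold lower at 2 µM than at 1 µM (log2 difference -1.76, SE 0.26, adjusted p 0.00387 by edgeR). Its log2 difference was -1.68 without replicate 1 and -1.87 without replicate 2 of 2 µM. It lost the call in the fit of 4 libraries (adjusted p 0.243) and in limma voom with a weight per group (0.217).

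ENSG00000183873.11 was the best read of the 4 IDs and the most even between replicates. It was at 136 and 129 CPM at 1 µM and at 59.7 and 65.6 CPM at 2 µM. DMSO had 110 and 103 CPM, and ENMD-2076 had 132 and 129 CPM at 2.5 µM and 148 and 148 CPM at 5 µM. Both 2 µM libraries were thus the lowest of the 10, and the next lowest, a DMSO library, was at 103 CPM. It was 2.12-fold lower at 2 µM than at 1 µM (log2 difference -1.08, SE 0.11, adjusted p 0.00128 by edgeR). It was called in each alternative except the fit of the 4 TAK901 libraries (adjusted p 0.217). The fits without a 2 µM library, at -1.02 without replicate 1 and -1.16 without replicate 2, took their spread from the other groups.

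**Figure D4:**
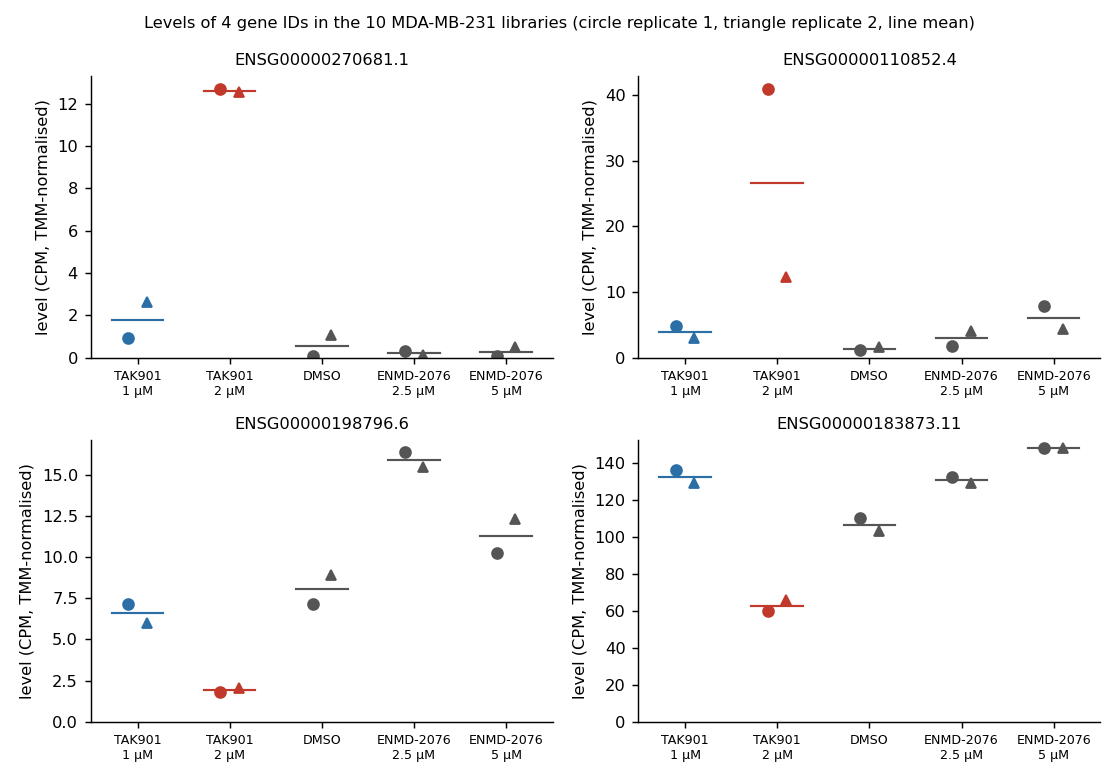
Level in CPM (y axis) of the 4 gene IDs in the 10 MDA-MB-231 libraries by group (x axis), with a circle for replicate 1, a triangle for replicate 2 and a line for their mean. ENSG00000270681.1 and ENSG00000110852.4 were highest at TAK901 2 µM (12.7 and 12.6 CPM, 40.9 and 12.2 CPM), and ENSG00000198796.6 and ENSG00000183873.11 were lowest there (1.81 and 2.05 CPM, 59.7 and 65.6 CPM).

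The doubling of ENMD-2076 from 2.5 to 5 µM gave a second dose step in the same cells that shared no library with the doubling of TAK901. A test of the difference between both steps across all tested IDs called 1 ID, or 0.00674%, with 1452 IDs at an unadjusted p under 0.05 (edgeR). DESeq2 called 37. The ID was ENSG00000183873.11, whose step with TAK901 was lower by a log2 difference of -1.26 (SE 0.15, adjusted p 0.0128) than its step with ENMD-2076. Its step with ENMD-2076 was 0.18 (adjusted p 0.950 by edgeR). The call of this difference was lost in 8 of the 10 fits that left out a library. It was kept without either 2 µM library. Those fits took the spread from the groups with closer replicates, so they cannot show that the call withstands the distance between the 2 µM replicates. Without both DMSO libraries the adjusted p was 0.0577. For ENSG00000270681.1 the steps differed by 2.49 (adjusted p 0.523), for ENSG00000110852.4 by 1.68 (0.493) and for ENSG00000198796.6 by -1.27 (0.336), none of which passed. Without replicate 2 of 2 µM, where the spread likewise came from other groups, the difference passed for ENSG00000110852.4 (2.29) and ENSG00000198796.6 (-1.37). Without a filter on low counts it passed for ENSG00000110852.4 (1.67, adjusted p 0.00775 by edgeR).

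Most IDs called for TAK901 had an ENMD-2076 step of the same sign, though few of those steps passed the test themselves (0 of the 161 higher and 1 of the 394 lower IDs, by edgeR). The IDs were chosen for the size of their TAK901 step, so the sizes of the steps are not compared. In the higher set, 135 of 161 IDs (83.9%) had a positive ENMD-2076 step, against 50.1% of all tested IDs, with a median log2 difference of 0.17. In the lower set, 78.4% had a negative step, against 49.9% of all tested IDs, with a median of -0.12. The median over all tested IDs was 0.00. Across the 14826 tested IDs, which are not independent replicates, the correlation of both steps was 0.106, and many of those IDs were weakly read. Between its own libraries the TAK901 step gave a low correlation too: replicate 1 of 2 µM minus replicate 1 of 1 µM had a correlation of 0.239 with the same difference between the second replicates, and 0.140 when the numbers were crossed. The ENMD-2076 step gave 0.144 and 0.135 in the same way.

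The libraries of DMSO and ENMD-2076 placed the called sets relative to 1 µM, with the 1 µM libraries shared by all these differences. In the higher set the DMSO libraries stood at a median of -0.30 and -0.31 log2 units from the 1 µM mean, and the ENMD-2076 libraries at -0.16 and -0.14 for 2.5 µM and -0.02 and 0.01 for 5 µM. In the lower set the DMSO libraries stood at 0.32 and 0.36, and the ENMD-2076 libraries at 0.25 and 0.25 for 2.5 µM and 0.14 and 0.15 for 5 µM. The 1 µM libraries thus had median levels between those of DMSO and those of 2 µM in both sets. For single IDs this order was less regular: 50 and 46 of the 161 higher IDs were above the 1 µM mean in the DMSO libraries, and 312 and 319 of the 394 lower IDs were.

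Cell-cycle phase was read from a published classifier, the human marker set of the scran package, which holds pairs of IDs for each phase. The IDs that stood first in pairs of 1 phase only were kept as the list of that phase. Whether each such ID rises by itself in its phase was not tested. Over all tested IDs 3.74% were called, so lists of 22 to 43 tested IDs would hold few calls at that share. In the S phase list 0 of 29 tested IDs rose and 2 fell, with a median log2 difference of -0.02 and a range of -0.64 to 1.63. In the G2/M list 1 of 43 rose and 1 fell, with a median of -0.09 and a range of -0.58 to 1.02. In the G1 list 0 of 22 rose and 0 fell, with a median of 0.14 and a range of -0.22 to 0.72. These counts are thus not read as a result about the lists.

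The summed levels of the G1 and G2/M lists differed more between the 2 µM replicates than between doses. The G2/M list summed to 4359 and 4140 CPM at 1 µM and to 5577 and 4051 CPM at 2 µM, so the 2 µM libraries lay on both sides of the 1 µM libraries. The G1 list did the same, with 8931 and 8623 CPM at 1 µM and 10720 and 8378 CPM at 2 µM. The member medians of both lists ran the other way between the 2 µM replicates. For replicates 1 and 2 they were 5.729 and 5.839 log2 CPM in G2/M and 7.290 and 7.405 in G1. The higher sums of replicate 1 are thus not read as a shift of the whole list, and which members carried them was not tested. The S list summed lower in both 2 µM libraries, at 1301 and 1390 CPM against 1465 and 1466 CPM at 1 µM. It was the only list of the 3 whose sums did not overlap between the doses. Its member medians did overlap, at 4.69 and 4.64 log2 CPM at 1 µM and 4.65 and 4.63 at 2 µM. Among single tested IDs such separation was common, with 20.5% higher and 23.1% lower at 2 µM. The S sums are thus not read as a fall of the list. The direction of 2 medians turned with the library left out: without replicate 1 of 2 µM the G1 median was -0.04 and the S median 0.02, and without replicate 2 they were 0.25 and 0.05. The G2/M median stayed negative in both cases, at -0.03 and -0.07. Leaving out replicate 2 of 2 µM also raised the calls in the lists, to 9 higher and 0 lower in G1, 2 higher and 7 lower in S, and 6 higher and 7 lower in G2/M. Leaving out replicate 1 gave 0 higher and 1 lower in G1, 1 higher and 3 lower in S, and 1 higher and 3 lower in G2/M.

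**Figure D5:**
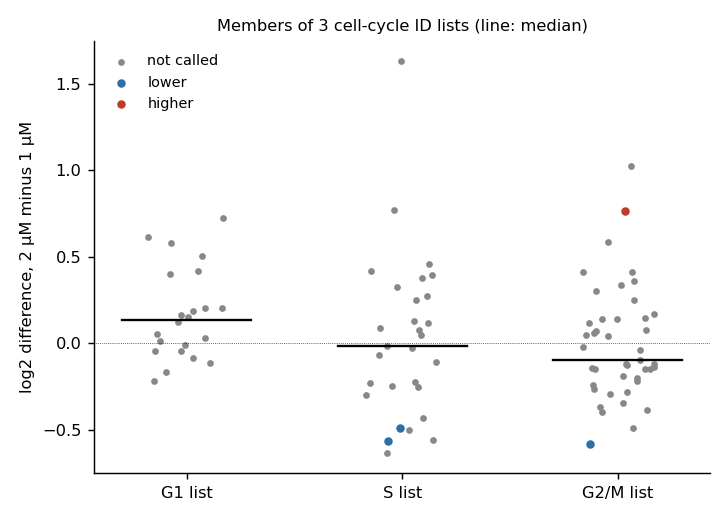
Log2 difference of TAK901 2 µM minus 1 µM (y axis) for each tested member of the G1, S and G2/M ID lists (x axis, points spread sideways only for legibility), with a line at the list median of 0.14, -0.02 and -0.09. One G2/M member was called higher (red), and 1 G2/M and 2 S members were called lower (blue).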

How the data were processed

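RNA from MDA-MB-231 cells was sequenced on an Illumina HiSeq, per the labels' protocols. The authors deposited raw read counts per gene ID, 1 file per library, per the file headers. Per the submitters' processing notes the tools were FastQC 0.11.3, Bowtie, TopHat, HTSeq and DESeq2, with builds hg38 and mm10. Neither the annotation nor the counting strand is named there (not given in the sources used here).

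Counts of 42713 IDs in 10 libraries (13399296 to 23990881 reads) were fitted in edgeR 4.0.16 (R 4.3.3) with filterByExpr, TMM factors and 1 coefficient per group, and tested with glmQLFTest. Levels are TMM-normalised CPM, and log values used a prior count of 2. Alternatives were DESeq2 1.42.0, RLE and total-count scaling, no filter, other sets of libraries, limma 3.58.1 voom, a replicate block and leaving out each library. The fits were tested on simulated data with the same spread in all groups, so the wider spread at 2 µM was not simulated. No pair of libraries agreed within sampling noise: the chi-square per degree of freedom was at least 4.51 over all pairs.

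Members and lists were chosen with earlier results of these data known. The planned rule named the 12 largest rises and falls with a symbol and a mean of 5 CPM, and lists by symbol. Without names it was replaced by the 2 largest each way among called IDs with 5 CPM in every library of the higher group, a condition set after some of the largest rises were seen to rest on 1 library. ENSG00000183873.11 was then taken as the second fall because it alone passed the test of the dose steps. The lists of scran 1.30.0, the level bands and the 318 IDs were also chosen after values were seen. The libraries of the 4T1 line were not used here.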

Additional observations from a re-analysis of the deposited data

Results flagged for a closer look

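ENSG00000183873.11 differed between the compounds in its dose step, in the fit of all 10 libraries. Its log2 difference over the doubling of TAK901 minus that over the doubling of ENMD-2076 was -1.26 (adjusted p 0.0128, edgeR's quasi-likelihood test of the interaction). The TAK901 libraries went from 136 and 129 CPM to 59.7 and 65.6 CPM, and the ENMD-2076 libraries from 132 and 129 CPM to 148 and 148 CPM. It was lower in 2 of 2 libraries at the higher dose of TAK901 and higher in 2 of 2 at the higher dose of ENMD-2076. Its ENMD-2076 step alone was 0.18 and did not pass (adjusted p 0.950 by edgeR). For TAK901, 23.1% of all tested IDs were likewise lower in both 2 µM libraries. The ID was printed because it passed the test of the steps, so the order of its libraries adds no support. Over the alternatives the difference ran from -1.34 to -1.20, and the call was lost in 10 of 18. Those were the fit without both DMSO libraries, which is that of only the groups compared (adjusted p 0.0577), and 8 of the 10 fits that left out a library (0.0524 to 0.294).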

How the results depend on the processing

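The count of 555 IDs stayed within 1.5 times with RLE scaling (542), total-count scaling (492) and the replicate block (794). It was 1008 with DESeq2, 1369 without a filter (675 higher and 694 lower), 0 in the fit of only the 4 TAK901 libraries, 244 without both DMSO libraries and 250 with limma voom and a weight per group. Leaving out each library gave 22 to 3581. The count of 1 for the difference of the steps was 1 with RLE and total-count scaling, 37 with DESeq2, 289 without a filter, 0 in the fit of only the libraries of the groups compared, which is that without both DMSO libraries, 14 with limma voom and 7 with the replicate block. Leaving out each library gave 0 to 2223. The count of 0 for the doses had 1737 IDs at an unadjusted p under 0.05, and those for the steps had 1323 without DMSO and 791 to 1425 in the 8 fits that left out 1 library and called none. Whether the replicate numbers pair the libraries was not settled. The deviations of same-numbered libraries correlated by -0.02 to 0.11 over the pairs of groups. The highest was that of TAK901 1 µM with TAK901 2 µM, the groups compared here. The difference of the steps kept its sign for the 4 printed IDs in each alternative run. The S list median ran from -0.05 to 0.05, G1 from -0.04 to 0.25 and G2/M from -0.11 to -0.02. With 2 libraries a group, the spread at 2 µM is itself poorly known, and the cause of the changes in count was not tested.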
